A study of Sus scrofa with 45 samples.

Results

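LGALS9, the gene of galectin-9, and SERPING1, the gene of C1 inhibitor, were followed across 12 groups of blood samples from miniature pigs. They are 2 of the 2130 genes that could be named on a porcine microarray of 43603 probes, and the array annotation ties 6 of these probes to them, 3 to each gene. Both genes were taken because they were among the genes raised by diet in these samples, so the values of a diet against control chose them and are given as a description without a test.

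Galectin-9 is a lectin with a pair of carbohydrate recognition domains that binds galactose-containing sugars on the surface of leukocytes, among them those on the T cell receptor TIM-3, and its gene is known to be induced by interferons. C1 inhibitor is a serpin, a protease inhibitor that stays bound to the protease it traps. It inactivates C1r and C1s of the classical complement pathway as well as plasma kallikrein and factor XII of the contact system, and it is made by the liver and by monocytes, also under induction by interferons.

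Young male Clawn miniature pigs, housed singly under specific pathogen-free conditions, were kept on a standard dry feed (control), on a diet high in lard and cholesterol (HFCD) or on such a diet that was also high in sucrose (HFCSD). Whole blood collected in PAXgene tubes was studied when feeding had lasted 10, 19 or 27 weeks, and white blood cells, from which RNA was taken with a LeukoLOCK kit, after 27 weeks. Each of the 45 RNA samples was labelled with Cy3 and read on its own array. The weeks count the feeding period, over which the pigs also grew older.

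For whole blood there were 4 control, 4 HFCD and 4 HFCSD arrays of 10 weeks, then 4, 4 and 3 of 19 weeks, then 4, 3 and 3 of 27 weeks, and for white blood cells at 27 weeks there were 4 arrays per diet. Both diets were set against the same control arrays in each set, so a control array that was high or low by chance moved both differences. The pigs of a diet were bled repeatedly, so arrays of different weeks or sample types can come from the same pig. The labels do not say which do. Comparisons between weeks or sample types therefore treated all arrays as independent, and p-values measure the spread between arrays, not between pigs. Whole blood and white blood cells are mixtures of cell types, in which fewer cells of a type and less RNA per cell cannot be told apart. The sample types differed in kit, slides and scan day, so an effect of sample type and one of batch cannot be told apart. Whole blood arrays of different weeks shared no slide and no scan day. An effect of the feeding period and one of batch therefore cannot be told apart either. At 19 weeks control replicates 2 to 4 were scanned on another day than control replicate 1 and all diet arrays of that week.

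Levels are log2 intensities, quantile normalized over the 45 arrays, so a difference of 1 is a fold of 2. A probe counted as measured on an array if the image software flagged it well above background, as it did 35.4% to 53.3% of an array's probe spots. With 3 or 4 arrays per group every mean is imprecise.

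Galectin-9 was represented by the probes A_72_P179706, A_72_P077551 and A_72_P312988, all annotated under the older pig name UATP.I. A_72_P179706 had the highest mean of them and leads the description. Well above background on all 45 arrays, it spanned 9.81 to 14.12, and its mean lay above those of 98.1% of the probes on the array. A_72_P077551 shares a run of 55 bases with it and followed it with a Pearson r of 1 over the 45 arrays, so the values of this pair are not independent. A_72_P292424, whose annotation does not name galectin-9, shares 52 bases with the lead probe and also had an r of 1. A_72_P312988 lies in another stretch of the transcript, with at most 7 bases in a row in common with the lead probe. It was dimmer, well above background on 39 of 45 arrays, and correlated with the lead probe at r = 0.82 over the 45 arrays.

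C1 inhibitor was represented by A_72_P226002, A_72_P011466 and A_72_P209407. A_72_P226002 leads the description, with a range of 8.44 to 12.45 and a mean above those of 94.3% of the probes. Its annotation names another transcript record than the one shared by A_72_P011466 and A_72_P209407. It has at most 6 bases in a row in common with A_72_P011466. Whether these probes read the same transcript was not tested. A_72_P011466, also well above background on all 45 arrays, spanned 4.52 to 9.28 and correlated with the lead probe at r = 0.82 over the 45 arrays and 0.90 after the group means were removed. A_72_P209407 was well above background on 4 of 45 arrays, so no fold is given for it. The sequence of A_72_P011466 is shown because its difference between sample types passed the test, unlike that of the lead probe of the same gene.
A_72_P011466: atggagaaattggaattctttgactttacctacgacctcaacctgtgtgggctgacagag

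In the first set, 10-week whole blood, the LGALS9 level was 9.81, 11.89, 10.76 and 11.42 on the 4 control arrays. It was 13.70, 11.66, 12.39 and 12.59 on the HFCD arrays. On the HFCSD arrays it was 12.78, 12.79, 11.95 and 10.84. Of the HFCD arrays all but replicate 2 lay above every control, and of the HFCSD arrays all but replicate 4, so both diets overlapped with control. The group means were 10.97 (0.90), 12.59 (0.84) and 12.09 (0.92) for control, HFCD and HFCSD (mean (SD)). The difference from control was 1.61 under HFCD, a fold of 3.06 (standard error of the difference 0.55), with 3 of 4 arrays above all controls. Under HFCSD it was 1.12, a fold of 2.17 (standard error 0.55), also with 3 of 4 arrays above all controls. In these comparisons limma called 0.0281% of 17767 probes for HFCD and 0.0123% of 16198 for HFCSD, and since diet chose the genes, nothing is read from the counts of LGALS9 and SERPING1 arrays against such shares in any diet comparison. Within the 3 slides that held both groups, the mean difference was 1.84 (range 0.13 to 3.88) under HFCD and 0.93 (range -0.25 to 2.97) under HFCSD.

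After 19 weeks LGALS9 read 11.92, 11.42, 11.71 and 10.46 in control whole blood. The HFCD arrays read 13.47, 12.62, 13.59 and 13.85. The 3 HFCSD arrays read 13.11, 12.67 and 12.35. No diet array overlapped with a control array, the nearest being HFCSD replicate 3 and control replicate 1. LGALS9 was 2.00 higher under HFCD, a fold of 4.01 (standard error 0.36, 4 of 4 arrays above all controls), in a comparison in which limma called 0.0181% of 16615 probes. It was 1.33 higher under HFCSD, a fold of 2.52 (standard error 0.39, 3 of 3 arrays), where 0.0175% of 17178 probes were called. Control replicate 1, the control scanned on the day of the diet arrays, had the highest LGALS9 level of the 4 controls, and on that day alone the differences were 1.47 and 0.80. On the only slide with control and HFCD arrays the difference was 0.71. No slide held control and HFCSD arrays, and with slides as blocks, a setting added once the data had been seen, the HFCSD difference of LGALS9 turned to -0.22, so its direction at 19 weeks depended on that term.

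At 27 weeks the LGALS9 level in control whole blood was 12.62, 11.72, 10.50 and 10.47. Under HFCD it was 12.66, 13.50 and 13.61. The HFCSD values were 13.53, 13.46 and 13.08. The control arrays were spread over the widest range of the 4 sets, and the highest control, replicate 1, lay just under the lowest HFCD array. The difference from control was 1.93 under HFCD, a fold of 3.81 (standard error 0.49), with 3 of 3 arrays above all controls, beside 0.0165% of 18188 probes called. For HFCSD it was 2.03, a fold of 4.08 (standard error 0.49), again with 3 of 3 arrays above all controls, beside 10.6% of 17135 probes called. Spots well above background made up 39.6%, 38.8% and 39.7% of those on the HFCSD arrays and 50.2%, 49.4%, 46.5% and 38.9% on the controls. With this share added to the model, a choice made once the data had been seen, the LGALS9 difference under HFCSD was 2.76, and limma then called 0 of the 17135 probes, with 2830 at an unadjusted p under 0.05. Calls also numbered 453 of 43603 with no filter on dim probes and 142 of 17135 by a t-test with Benjamini-Hochberg adjustment, so the share of 10.6% depended on the settings. Within the 2 slides that held both groups it was 1.68 under HFCD and 2.27 under HFCSD.

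In white blood cells the control arrays had LGALS9 levels of 12.44, 10.65, 11.54 and 10.55. The HFCD arrays had levels of 12.15, 14.12, 12.30 and 13.03. The HFCSD arrays had levels of 12.75, 12.29, 12.38 and 12.53. Control replicate 1 was high enough to overlap with 2 arrays of either diet, and the HFCSD arrays were close together. LGALS9 was 1.61 higher under HFCD, a fold of 3.05 (standard error 0.46, 2 of 4 arrays above all controls), beside 0.0276% of 18126 probes called. It was 1.19 higher under HFCSD, a fold of 2.28 (standard error 0.47, 2 of 4 arrays above all controls), beside 0.0366% of 19105 probes called. The mean difference within 3 slides was 1.78 and 1.21.

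The overlapping probe A_72_P077551 gave LGALS9 differences of 1.59, 1.93 and 1.73 under HFCD in whole blood at 10, 19 and 27 weeks and 1.62 in white blood cells. Under HFCSD they were 1.13, 1.28, 1.92 and 1.10. The separate probe A_72_P312988 was well above background on 2 of 4 control arrays at 10 and at 19 weeks, on 2 of 3 HFCSD arrays at 19 weeks and on 3 of 4 controls at 27 weeks, so no size of its whole blood difference is given, and its group means were higher under either diet than in control in all 3 weeks. In white blood cells, where it was well above background on all arrays, it gave 1.46 under HFCD and 0.69 under HFCSD.

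SERPING1 had log2 levels of 9.46, 8.67, 9.27 and 9.48 in control whole blood at 10 weeks. Under HFCD the levels were 10.93, 9.50, 10.92 and 11.17. Under HFCSD they were 8.44, 10.90, 8.52 and 10.36. The HFCD arrays lay above all controls, replicate 2 only barely, while the HFCSD arrays fell into a pair above all controls and a pair below them. The group means were 9.22 (0.38), 10.63 (0.76) and 9.55 (1.26). The difference from control was 1.41 under HFCD, a fold of 2.66 (standard error 0.55, 4 of 4 arrays above all controls), and 0.33 under HFCSD, a fold of 1.26. Within slides the mean SERPING1 difference was 1.60 (range 1.47 to 1.79) and 0.35 (range -0.15 to 0.98). The HFCSD difference was -0.11 without HFCSD replicate 2, so its direction was not fixed.

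At 19 weeks the control levels of SERPING1 were 10.36, 10.20, 10.45 and 9.92. The HFCD levels were 11.08, 10.40, 11.23 and 10.28. The HFCSD levels were 9.89, 11.30 and 10.24. HFCD replicates 1 and 3 lay above all controls and the other HFCD arrays among them, and the HFCSD arrays surrounded the controls. SERPING1 was 0.52 higher under HFCD, a fold of 1.43 (standard error 0.34), and 0.24 higher under HFCSD, a fold of 1.18. Among arrays scanned together with the diet arrays the differences were 0.38 and 0.11, and on the slide with control and HFCD arrays the difference was 0.04. With slides as blocks the HFCSD difference of SERPING1 was -0.35, and without HFCSD replicate 2 it was -0.17.

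In whole blood at 27 weeks SERPING1 levels were 11.31, 10.30, 10.36 and 9.21 on the control arrays. The HFCD arrays had 10.87, 11.74 and 10.98. The HFCSD arrays had 9.58, 9.74 and 10.96. Only HFCD replicate 2 lay above all controls, and the HFCSD arrays lay within the range of the controls. The difference was 0.90 under HFCD, a fold of 1.87 (standard error 0.49, 1 of 3 arrays above all controls), and -0.21 under HFCSD, a fold of 0.867. With the share of well measured spots added to the model, the HFCSD difference was 0.53, and it was 0.13 without control replicate 1 and 0.05 without HFCSD replicate 1, so its direction was not fixed. Within slides the mean difference was 1.05 under HFCD and -0.33 under HFCSD.

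White blood cells of the control pigs had SERPING1 levels of 11.26, 10.06, 10.60 and 10.24. Those of the HFCD pigs had 10.81, 11.82, 12.45 and 11.56. Those of the HFCSD pigs had 9.91, 10.92, 10.07 and 11.51. All HFCD arrays but replicate 1 lay above the controls, and the HFCSD arrays overlapped with the controls on both sides. SERPING1 was 1.12 higher under HFCD, a fold of 2.17 (standard error 0.42, 3 of 4 arrays above all controls), and differed by 0.07 under HFCSD, a fold of 1.05, with values of -0.23 to 0.31 when 1 array was left out. Within 3 slides the mean difference was 1.35 and 0.10. The other measured probe, A_72_P011466, gave 1.33, 0.45 and 1.17 under HFCD in whole blood at 10, 19 and 27 weeks and 0.97 in white blood cells. Under HFCSD it gave 0.37, 0.05, 0.47 and 0.00.

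**Figure D1:**
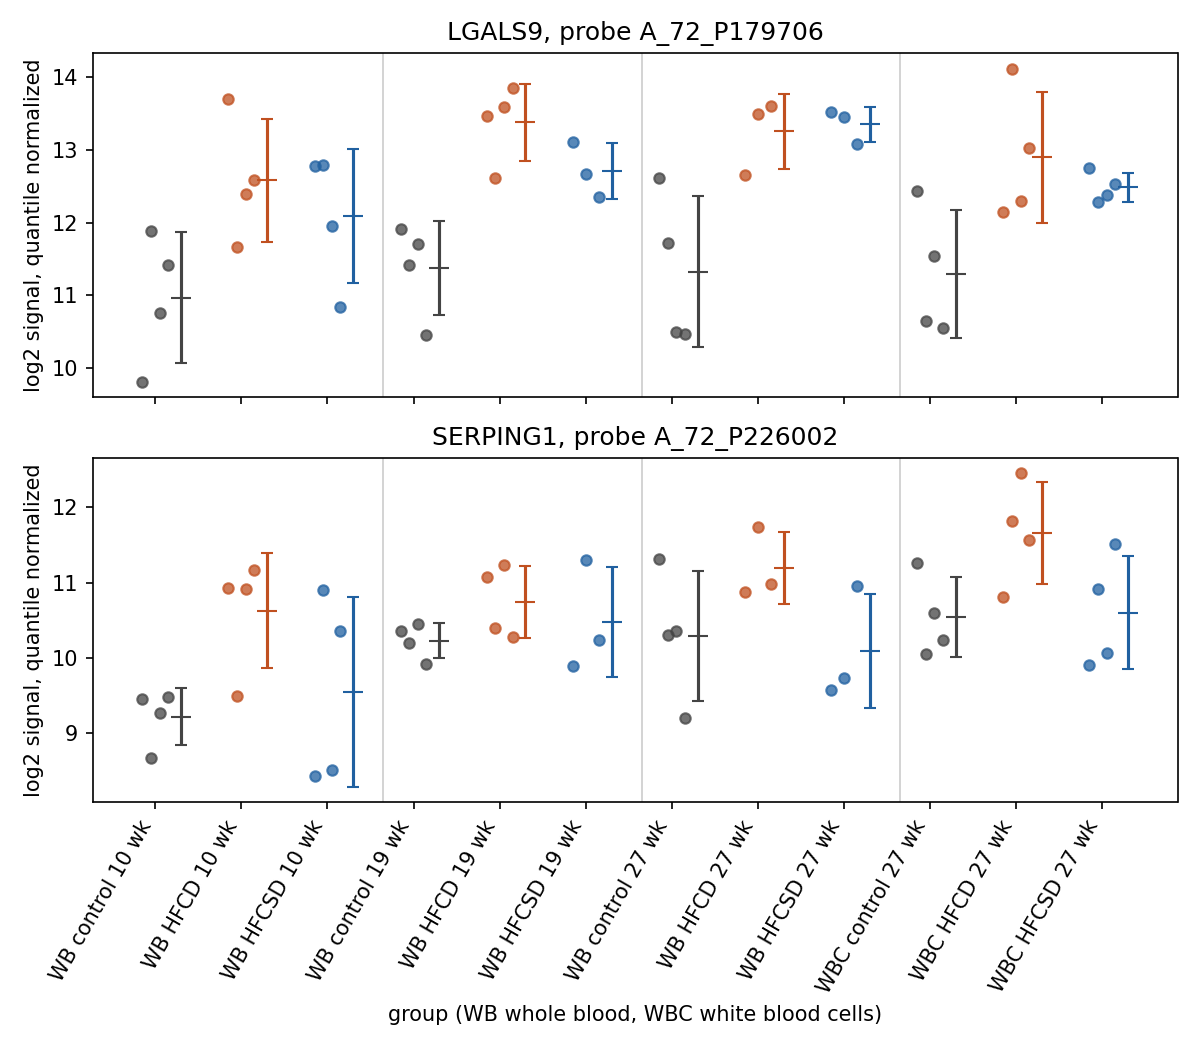
Log2 signal, quantile normalized, of the lead probes of LGALS9 and SERPING1 in the 12 groups, with a point for each array and the group mean and SD drawn beside the points. The LGALS9 means of the 8 diet groups all lie above those of the 4 control groups, while the SERPING1 means of the HFCSD whole blood groups lie among those of the controls.

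Ordered by mean level, LGALS9 was highest in HFCD whole blood at 19 weeks, 13.38 (0.53), followed by HFCSD at 27 weeks, 13.35 (0.24), and HFCD at 27 weeks, 13.25 (0.52). Then came HFCD white blood cells, 12.90 (0.90), HFCSD whole blood at 19 weeks, 12.71 (0.38), HFCD at 10 weeks, 12.59 (0.84), HFCSD white blood cells, 12.48 (0.20), and HFCSD whole blood at 10 weeks, 12.09 (0.92). The 4 control groups took the lowest places, namely whole blood of 19 weeks at 11.38 (0.64) and of 27 weeks at 11.33 (1.04), white blood cells at 11.29 (0.88) and whole blood at 10 weeks at 10.97 (0.90). No neighbours in this LGALS9 order differed by more than the larger of their SDs. The widest step, 0.71, stood between the lowest diet group and the highest control group.

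By its lead probe SERPING1 was highest in the 4 HFCD groups, with white blood cells at 11.66 (0.68) and whole blood at 11.20 (0.47) after 27 weeks, 10.75 (0.48) after 19 weeks and 10.63 (0.76) after 10 weeks. HFCSD and control white blood cells followed at 10.60 (0.75) and 10.54 (0.53), then HFCSD whole blood at 19 weeks at 10.48 (0.74). Control whole blood at 27 and 19 weeks stood at 10.30 (0.86) and 10.23 (0.23), HFCSD at 27 and 10 weeks at 10.09 (0.76) and 9.55 (1.26), and control at 10 weeks at 9.22 (0.38). Here too every step between neighbours was smaller than the larger of their SDs. A_72_P011466 did not keep this order, with 7.44 (0.47) and 7.44 (0.80) in control and HFCSD white blood cells above the 6.84 (0.79) and 6.99 (0.56) of HFCD whole blood at 19 and 27 weeks. By the lead probes, the HFCSD groups of SERPING1 were close to or mixed with the controls, whereas those of LGALS9 stood above them.

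White blood cells were compared with whole blood at 27 weeks within each diet, a comparison that diet did not choose. The LGALS9 level of the lead probe was nearly the same in both sample types of control pigs, with a difference of -0.03 (standard error 0.51, limma adjusted p = 0.966) and 2 of 4 white blood cell arrays above the whole blood mean. Under HFCD it was -0.35 (standard error 0.55, limma adjusted p = 0.612), with 1 of 4 arrays above that mean. Under HFCSD it was -0.87 (standard error 0.55, limma adjusted p = 0.169), and all 4 white blood cell arrays lay below all 3 whole blood arrays. Of all probes tested, limma called 43.8% of 19022 in control, 46.1% of 19414 under HFCD and 59.1% of 19689 under HFCSD, with medians of 0.17, 0.19 and 0.42 in favour of white blood cells. In a fit of only the 2 groups compared the HFCSD difference of -0.87 passed. The sign of the small LGALS9 difference in control was not fixed, since it was 0.28 when arrays were scaled to their 75th percentile instead, a setting that moved the median of all probes by 0.13.

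For SERPING1 the lead probe was somewhat higher in white blood cells under each diet, without passing the test. The differences were 0.24 in control (standard error 0.48, limma adjusted p = 0.711, 2 of 4 arrays above the whole blood mean), 0.46 under HFCD (standard error 0.52, limma adjusted p = 0.482, 3 of 4) and 0.51 under HFCSD (standard error 0.52, limma adjusted p = 0.403, 2 of 4). In control the difference was -0.12 without whole blood replicate 4 and 0.00 without white blood cell replicate 1.

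The SERPING1 probe A_72_P011466 stood further apart. Its whole blood values were 6.70, 6.10, 5.98 and 4.52 (control), 6.63, 7.64 and 6.72 (HFCD) and 5.94, 6.10 and 6.84 (HFCSD). Its white blood cell values were 8.06, 7.03, 7.52 and 7.14 (control), 7.77, 8.30, 9.28 and 8.29 (HFCD) and 6.51, 7.94, 7.05 and 8.26 (HFCSD). Within control and within HFCD every white blood cell array lay above every whole blood array, and under HFCSD all but replicate 1 did. A_72_P011466 was higher in white blood cells by 1.62 in control (standard error 0.49, limma adjusted p = 0.00792, 4 of 4 arrays), a fold of 3.06, and by 1.42 under HFCD (standard error 0.53, limma adjusted p = 0.0287, 4 of 4 arrays), a fold of 2.67. The difference of 1.15 under HFCSD did not pass (standard error 0.53, limma adjusted p = 0.0619, 3 of 4 arrays above all whole blood arrays). The call in control was lost without whole blood replicate 4, with a difference of 1.18 (limma adjusted p = 0.0639). The call under HFCD was lost without whole blood replicate 1 or 3 or white blood cell replicate 3, with differences of 1.23, 1.28 and 1.13 (limma adjusted p = 0.0956, 0.0938 and 0.103). By a t-test with Benjamini-Hochberg adjustment neither call was kept, at the same differences of 1.62 and 1.42. The HFCD call was also lost with no filter on dim probes. The 2 probes of SERPING1 thus differed in how far the sample types lay apart, and that difference between probes was not tested.

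**Figure D2:**
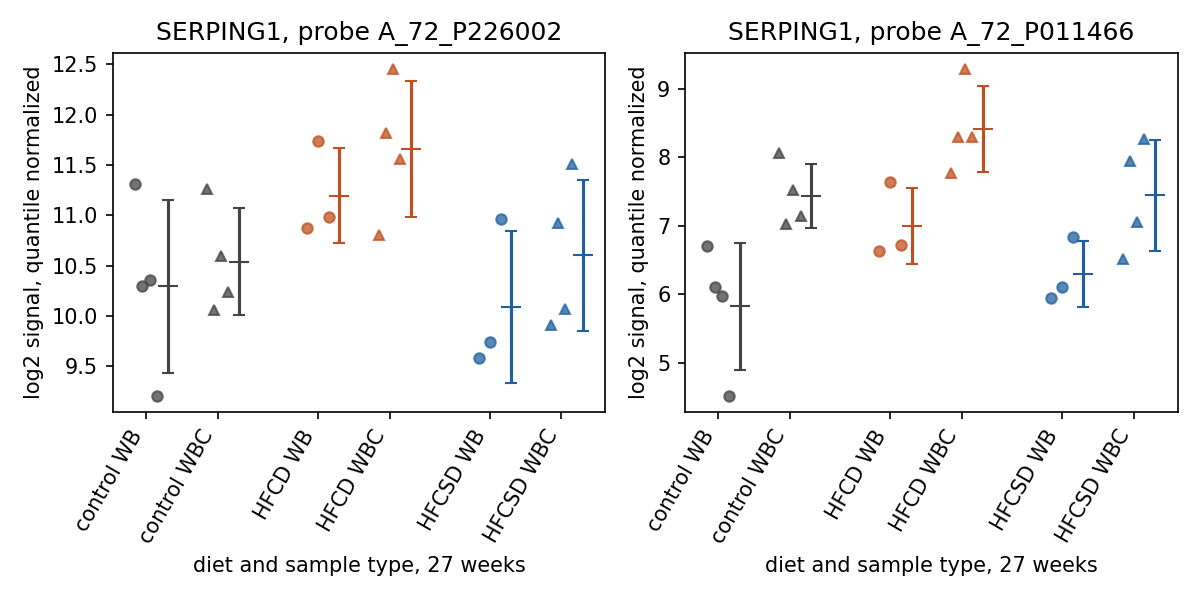
Log2 signal, quantile normalized, of the SERPING1 probes A_72_P226002 and A_72_P011466 at 27 weeks in whole blood (WB) and white blood cells (WBC) by diet, with a point for each array and the group mean. For A_72_P011466 the white blood cell arrays of the control and HFCD groups all lie above the whole blood arrays of the same diet, and for A_72_P226002 the sample types overlap under every diet.

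A_72_P312988, the separate probe of LGALS9, read 5.74, 4.38, 3.73 and 1.51 in control whole blood, where 3 of 4 arrays were well above background, and 7.22, 5.47, 6.19 and 4.48 in control white blood cells. White blood cell replicates 1 and 3 lay above all whole blood arrays, and whole blood replicate 4 was far below the rest. The difference of 2.00 in control (standard error 0.80, limma adjusted p = 0.0395, 2 of 4 arrays above all whole blood arrays) rests in part on replicate 4, which was not well above background, and is not read as a call. Without that array it was 1.23 (limma adjusted p = 0.237). Leaving out whole blood replicate 3 or white blood cell replicate 1, 2 or 3 gave an adjusted p above 0.05 as well, at differences of 1.96, 1.54, 2.13 and 1.88 (limma adjusted p = 0.0681, 0.141, 0.0512 and 0.0883). For this LGALS9 probe the differences under HFCD and HFCSD were 1.17 and 0.01 (limma adjusted p = 0.265 and 0.991, 2 and 0 of 4 arrays above all whole blood arrays), while A_72_P077551 gave -0.12, -0.23 and -0.93 (limma adjusted p = 0.872, 0.750 and 0.140) in control, HFCD and HFCSD.

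Markers of blood cell types were set beside the sample types, and their part in the LGALS9 and SERPING1 differences was not tested. Neutrophil markers (2 of 8 genes on the array, ARG1 and MMP9, with ARG1 the brightest) had mean levels of 11.21 (0.73), 12.50 (0.93) and 12.98 (0.69) in whole blood of control, HFCD and HFCSD pigs at 27 weeks and of 9.54 (1.34), 10.32 (0.80) and 10.71 (1.20) in white blood cells. Monocyte markers (5 of 9 genes, LYZ the brightest, VCAN well above background on 0 arrays) had 6.59, 7.05 and 6.83 in whole blood and 7.91, 8.09 and 7.76 in white blood cells. Neutrophil markers were thus lower and monocyte markers higher in white blood cells in the mean under every diet. T cell markers (7 of 11 genes, CD3D the brightest) had 6.71, 6.94 and 6.92 in whole blood. In white blood cells they had 7.62, 7.80 and 7.85. CD4 was well above background on 32 arrays by the probe A_72_P077421 and on 0 by A_72_P306178. Natural killer cell markers (3 of 8 genes, GNLY the brightest) had 9.83, 9.94 and 9.75 against 10.88, 11.15 and 10.86.

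Platelet markers (2 of 6 genes, ITGA2B the brightest) had 11.03 (0.27), 9.86 (0.31) and 9.86 (1.85) against 11.82 (2.64), 10.73 (2.64) and 11.36 (1.53). Endothelial markers (4 of 5 genes, PECAM1 the brightest) had 6.51 (0.19), 6.10 (0.08) and 6.14 (0.45) against 7.48 (1.31), 6.84 (1.01) and 6.96 (0.66). CDH5 was well above background on at most 6 of 45 arrays and KDR on 1. The endothelial level is a mean over 8 probes, these dim ones among them, so it is not the level of PECAM1 and VWF alone. Liver markers (7 of 11 genes, TF the brightest) stood at 2.76, 2.75 and 2.90 against 2.54, 2.49 and 2.61, and ALB was well above background on 0 arrays. Of 8 erythroid markers 0 were on the array. At earlier weeks the neutrophil level was 11.65 (0.74), 11.53 (0.56) and 12.27 (0.56) at 10 weeks and 11.69 (0.58), 12.68 (0.73) and 12.67 (0.98) at 19 weeks in control, HFCD and HFCSD whole blood, beside the diet differences of LGALS9. Platelet markers had 10.69 (0.13), 9.59 (0.17) and 10.57 (0.44) at 10 weeks and 10.60 (0.27), 9.16 (1.88) and 10.36 (0.83) at 19 weeks, and T cell markers had 7.40 (0.20), 7.59 (0.21) and 7.40 (0.25), then 6.61 (0.06), 7.23 (0.28) and 7.11 (0.33). Endothelial markers had 6.63 (0.12), 6.27 (0.18) and 6.66 (0.48) at 10 weeks and 6.19 (0.05), 5.84 (0.77) and 5.94 (0.18) at 19 weeks. Monocyte markers had 6.41 (0.46), 6.88 (0.43) and 6.67 (0.29), then 6.72 (0.35), 6.64 (0.53) and 6.63 (0.69), and natural killer cell markers 9.14 (0.65), 9.49 (0.75) and 9.12 (0.28), then 9.52 (0.38), 9.84 (0.08) and 9.61 (0.92).

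The effect of added sucrose was read from HFCSD minus HFCD. The SERPING1 difference with sucrose was -1.08 at 10 weeks, -0.27 at 19 weeks and -1.11 at 27 weeks in whole blood and -1.05 in white blood cells. A_72_P011466 gave -0.96, -0.40, -0.70 and -0.97. Choosing SERPING1 on HFCD arrays of 10 weeks favoured a lower value there. The other sets came from pigs of the same diets, bled repeatedly, so the choice may bear on them too. The shared sign is therefore not read as repeated evidence. At 10 weeks 2 of 4 HFCSD arrays lay below all HFCD arrays, and no p is given, since SERPING1 was chosen on HFCD arrays of that week. In that comparison limma called 0% of 17917 probes, with 886 at an unadjusted p under 0.05 and 0 by the t-test that the methods name, to which Benjamini-Hochberg adjustment was added here, as for every count by the t-test below unless stated. At 27 weeks 2 of 3 HFCSD arrays lay below all HFCD arrays in whole blood (standard error 0.52, limma adjusted p = 0.396, 0.0111% of 18005 probes called), and in white blood cells 2 of 4 did (standard error 0.42, unadjusted p = 0.0281 and adjusted p = 1.00 by limma). In white blood cells limma called 0% of 18799 probes, with 407 at an unadjusted p under 0.05 and 0 by the t-test. At 19 weeks 1 HFCSD array was above and 2 were below all HFCD arrays (limma adjusted p = 1.00), limma called 0% of 16277 probes, 253 had an unadjusted p under 0.05 and 0 passed by the t-test, and without HFCSD replicate 1 the difference was 0.02.

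LGALS9 differences with sucrose were -0.49 at 10 weeks (standard error 0.55, limma adjusted p = 0.817, 1 of 4 HFCSD arrays below all HFCD arrays), 0.10 at 27 weeks (standard error 0.53, limma adjusted p = 0.938, 0 of 3) and -0.42 in white blood cells (standard error 0.47, limma adjusted p = 1.00, 0 of 4). Without HFCD replicate 1 the 27-week difference was -0.20. With 1 array left out, the 10-week difference ranged from -0.80 to -0.08 and that in white blood cells from -0.67 to -0.01. With the share of well measured spots added to the model, the 27-week difference was 0.82 for LGALS9 and -0.38 for SERPING1, so the size of both depended on that term. At 19 weeks the difference was -0.67, given without a p because LGALS9 was chosen on HFCD arrays of that week, with 1 of 3 HFCSD arrays below all HFCD arrays. Within slides the mean LGALS9 difference with sucrose was -0.91 (range -1.75 to -0.08), -0.92 (-1.17 to -0.48), 0.32 (1 slide) and -0.57 (-1.48 to -0.02) at 10, 19 and 27 weeks and in white blood cells, and that of SERPING1 was -1.26 (-1.70 to -0.81), -0.39 (-1.34 to 1.03), -1.19 (1 slide) and -1.25 (-1.52 to -1.11). Neither gene passed for sucrose in the 3 sets in which it was tested, which does not show that the diets acted alike.

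Over the feeding period, LGALS9 in whole blood differed most under HFCSD, where it was 1.26 higher at 27 than at 10 weeks (standard error 0.55, limma adjusted p = 0.127), with 3 of 3 arrays above all 10-week arrays while limma called 11.2% of 16461 probes. Scaled to the 75th percentile of the arrays instead, this LGALS9 difference was 1.68 and passed. Between arrays of the same number, which looked paired in this group without a label that says so and were set side by side once the data had been seen, it was 0.75, 0.67 and 1.13 from 10 to 27 weeks and 0.42, 0.78 and 0.73 from 19 to 27 weeks, and 10-week replicate 4, the lowest, had no partner. It was 0.35 in control (limma adjusted p = 0.644, 1 of 4 arrays above all 10-week arrays, 22.2% of 17140 probes called) and 0.67 under HFCD (limma adjusted p = 0.524, 0 of 3, 6.36% of 18862 probes called). The control difference was -0.03 without 10-week replicate 1 and -0.08 without 27-week replicate 1. From 19 to 27 weeks LGALS9 differed by 0.64 under HFCSD (limma adjusted p = 0.498, 2 of 3 arrays above all 19-week arrays, 0.928% of 16814 probes called). In control and HFCD it differed by -0.05 and -0.13, given without a p because LGALS9 was chosen at 19 weeks. Of the other LGALS9 probes, A_72_P077551 gave 0.45, 0.59 and 1.24 for 27 minus 10 weeks in control, HFCD and HFCSD, whereas A_72_P312988 gave -0.37 under HFCD and 0.82 under HFCSD, so the probes differed in sign under HFCD.

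SERPING1 was 1.08 higher at 27 than at 10 weeks in control (3 of 4 arrays above all 10-week arrays) and 0.57 higher under HFCD, both without a p because SERPING1 was chosen at 10 weeks. Under HFCSD it was 0.54 higher (standard error 0.52, limma adjusted p = 0.539, 1 of 3 arrays above all 10-week arrays). From 19 to 27 weeks the SERPING1 difference was 0.07 in control (limma adjusted p = 0.965, 1 of 4 arrays above all 19-week arrays, 0.329% of 17320 probes called). It was 0.45 under HFCD (limma adjusted p = 0.920, 1 of 3), where limma called 0% of 17876 probes, with 1473 at an unadjusted p under 0.05 and 0 by the t-test. Under HFCSD it was -0.38 (limma adjusted p = 0.692, 2 of 3 arrays below all 19-week arrays). The control value was -0.04 without 19-week replicate 4 and -0.27 without 27-week replicate 1, and the HFCSD value was 0.03 without 19-week replicate 2. Between HFCSD arrays of the same number, SERPING1 differed by 1.14, -1.16 and 2.45 from 10 to 27 weeks. From 19 to 27 weeks these values were -0.31, -1.57 and 0.73. The other measured SERPING1 probe, A_72_P011466, had the opposite sign for 27 minus 10 weeks under all 3 diets, with -0.28 in control, -0.44 under HFCD and -0.18 under HFCSD, and for 27 minus 19 weeks it gave -0.57, 0.15 and -0.15. No direction of SERPING1 over the feeding period is therefore read from these values.

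How far a diet difference itself differed between sample types or weeks is given as a difference of differences, without a p, because it is built from the diet differences that chose the genes. For HFCD the diet difference in white blood cells minus that in whole blood was -0.32 for LGALS9 (standard error 0.75) and 0.22 for SERPING1 (standard error 0.71). For HFCSD it was -0.84 for LGALS9 (standard error 0.75) and 0.27 for SERPING1 (standard error 0.71). All but the HFCSD value of LGALS9 turned sign without 1 array, to 0.06 for LGALS9 under HFCD without white blood cell control replicate 1, and, without whole blood control replicate 1, to -0.12 and -0.07 for SERPING1 under HFCD and HFCSD. The HFCD difference of LGALS9 at 27 weeks exceeded that at 10 weeks by 0.32 (standard error 0.75), and the HFCSD difference by 0.91 (standard error 0.75). For SERPING1 the diet difference at 27 weeks minus that at 19 weeks was 0.38 under HFCD (standard error 0.71) and -0.45 under HFCSD (standard error 0.74). At 27 minus 10 weeks the SERPING1 value was -0.51 under HFCD and -0.54 under HFCSD (standard error 0.71 each), where A_72_P011466 gave -0.16 and 0.09. The HFCD difference of LGALS9 at 27 weeks minus that at 19 weeks was -0.08 (standard error 0.75). Over all probes, limma called 0.00981% of 20379 for HFCSD between sample types, 0.0168% of 17898 between 27 and 10 weeks and 3.47% of 17972 between 27 and 19 weeks, and for HFCD it called 0% of 20072, 19141 and 18441, with 130, 684 and 607 at an unadjusted p under 0.05 and no t-test run. Whether a diet acted on either gene to another extent in white blood cells or at another week is not read from these values. A_72_P011466 had the opposite sign to the lead SERPING1 probe between sample types, with -0.20 for HFCD and -0.47 for HFCSD, and for HFCSD between 27 and 19 weeks, with 0.42, and had the same sign for HFCD between these weeks, with 0.72. A_72_P312988 gave -0.83 and -1.99 between sample types for LGALS9, with a whole blood control array not well above background.

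Genes of 6 lists around galectin-9 and C1 inhibitor were counted in the 8 diet comparisons. The lists were chosen with earlier results of these data known, and probes of the same gene are not independent. A share of list probes above that of all probes is therefore a description and lends no support of its own. On the array were 25 of 59 interferon-induced genes, 28 of 43 complement components and receptors, 7 of 11 contact and fibrinolytic proteases, 8 of 19 other serpins, 3 of 10 other galectins and 2 of 7 galectin-9 binding partners. In 7 of the 8 comparisons limma called 0 of the 69 to 79 list probes tested, and the adjusted t-test called 0 too. By the t-test without adjustment, with the fold rule of the methods, 11, 15 and 11 passed under HFCD at 10, 19 and 27 weeks and 12 in white blood cells, and 2, 10 and 4 under HFCSD at 10 and 19 weeks and in white blood cells, or 15.3%, 21.1%, 15.3%, 15.2%, 2.90%, 14.1% and 5.06% beside 1.72%, 3.30%, 1.53%, 0.651%, 0.136%, 5.16% and 1.71% of all probes. At an unadjusted p under 0.05 the counts higher and lower were 27 and 3 under HFCD at 10 weeks, 24 and 5 at 19 weeks, 22 and 4 at 27 weeks and 25 and 3 in white blood cells, together 41.7%, 40.8%, 36.1% and 35.4% of the list probes beside 10.0%, 12.5%, 5.55% and 4.73% of all probes. Under HFCSD they were 3 and 1 at 10 weeks, 16 and 4 at 19 weeks and 19 and 4 in white blood cells, together 5.80%, 28.2% and 29.1% beside 1.73%, 11.9% and 11.3% of all probes.

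Under HFCSD at 27 weeks 5 of 69 list probes rose and 3 fell by limma, together 11.6% beside 10.6% of all probes, and 16 were higher and 6 lower at an unadjusted p under 0.05, 31.9% beside 32.2%, and 1 passed by the adjusted t-test and 10 by the unadjusted t-test with the fold rule, 14.5% beside 12.4% of all probes. Counted together, the lists thus had about the shares of the whole array in this comparison, and the genes that follow are named as single genes only. The interferon-induced list by itself had 11 of 42 probes higher and 0 lower at an unadjusted p under 0.05, and 4 of them passed. Of all probes 32.2% had such a p and 10.6% passed, in either direction. Neither count of this list exceeded the share of the whole array. With the share of well measured spots added to the model, the 6 lists had 46.4% of probes at an unadjusted p under 0.05 beside 16.5% of all probes. VTN, the gene of vitronectin, an inhibitor of the terminal complement complex, rose by 2.82 (limma adjusted p = 0.0283). The interferon-induced genes IRF7, ISG20 and IRF9, of which all but ISG20 encode transcription factors of the interferon response, rose by 2.14, 1.58 and 1.23 (limma adjusted p = 0.0310, 0.0471 and 0.0372). All 3 probes of LGALS3, the gene of galectin-3, had differences of -1.05, -1.04 and -1.01 (limma adjusted p = 0.0261, 0.0241 and 0.0243). On the side named, 3 of 3 HFCSD arrays lay beyond all control arrays for each probe given here. The count of 8 list probes was 0 without control replicate 1, 2 or 3 or HFCSD replicate 1 or 2, 5 without HFCD replicate 3 or HFCSD replicate 3, and 0 with the share of well measured spots added to the model.

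Interferon-induced genes, the group to which LGALS9 is counted in other species, were above 0 for 42 of 44 probes under HFCD at 10 weeks, with a median difference of 0.58 against 0.09 for all probes tested. They were above 0 for 39 of 44 at 19 weeks, 40 of 43 at 27 weeks and 37 of 45 in white blood cells, with medians of 0.70, 0.70 and 0.71 against -0.03, -0.03 and 0.02. Under HFCSD the medians were 0.19, 0.58 and 0.53 at 10, 19 and 27 weeks and 0.49 in white blood cells, against -0.01, 0.04, -0.21 and 0.01, with 34 of 42, 34 of 43, 36 of 42 and 36 of 45 probes above 0. The probes stood for 24 genes in each comparison, and the list was chosen with earlier results known, so these counts are a description only. CXCL10, a chemokine that draws T cells, had the largest difference of the list under HFCD at 19 weeks, 4.09, and did not pass (limma adjusted p = 0.117). RSAD2, an antiviral enzyme, differed by 2.68 there (limma adjusted p = 0.131).

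Among the complement genes, C1R, the gene of a protease that C1 inhibitor inactivates, differed by 1.19, 1.24 and 1.27 under HFCD in whole blood at 10, 19 and 27 weeks and by 1.37 in white blood cells. None of these passed (limma adjusted p = 0.305, 0.168, 0.785 and 0.317). Under HFCSD C1R differed by 0.51, 0.79, 0.72 and 0.72, in each set less than under HFCD, as SERPING1 did, and none passed (limma adjusted p = 1.00, 0.377, 0.0946 and 0.367). The complement list as a whole had medians of 0.24, 0.02, 0.25 and -0.01 under HFCD at 10, 19 and 27 weeks and in white blood cells and of 0.02, -0.25, 0.37 and -0.12 under HFCSD. Of the contact and fibrinolytic proteases 2 were measured, PLAU, a plasminogen activator, and F12, the zymogen of a protease that C1 inhibitor traps. PLAU differed by -0.29, -0.99, -0.69 and -0.50 under HFCD and by -0.23, -0.60, -0.99 and -0.84 under HFCSD, and F12 by -0.52 to 0.06 over the 8 comparisons.

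For other serpins the medians, in the same order of sets, were 0.22, 0.12, 0.10 and -0.04 with HFCD and 0.07, 0.03, 0.06 and -0.27 with HFCSD. Other galectins had medians of -0.67, -1.73, -0.89 and -0.84 under HFCD and -0.53, -1.34, -1.03 and -0.78 under HFCSD. They were set by LGALS3, whose 3 probes were lower than control in all 8 comparisons, opposite in sign to LGALS9, while LGALS1 differed by -0.35 to 0.41 and LGALS4, measured in white blood cells only, by -0.36 under HFCD and -0.14 under HFCSD. Of the binding partners of galectin-9, CD40 and CD44 were measured, with medians of -0.23, -0.28, -0.02 and 0.28 under HFCD and -0.10, 0.05, -0.12 and 0.49 under HFCSD. CD44, a hyaluronan receptor, differed by 1.98 under HFCSD at 27 weeks without passing (limma adjusted p = 0.0579).

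The genes whose pattern was most like that of LGALS9 were sought among 1729 named probes over the 45 arrays, as a description without a p. After the mean of each sample type and week was removed, which keeps diet, the highest Pearson r with LGALS9 was 0.88 for a probe of MX2, followed by RSAD2 (0.87), ISG20 (0.86), MX1 (0.84) and a second probe of MX2 (0.83). With the 12 group means removed, which takes diet out, the order was MX2 (0.79 and 0.77 for its probes), RSAD2 (0.70), USP18 (0.70) and MX1 (0.69). MX1 and MX2 encode antiviral GTPases and USP18 a protease that removes ISG15 from proteins. MX2, RSAD2 and MX1 thus stayed among the probes most like LGALS9 within groups, where values of an array share slide, scan day and blood sample.

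SERPING1, ranked against 1730 named probes, was followed most closely by CXCL16, a chemokine and scavenger receptor (0.80), C1R (0.78), the adhesion molecule ICAM1 (0.77) and MX1 (0.73) with diet kept. With the group means removed the order was C1R (0.80), CXCL16 (0.74), ICAM1 (0.70) and, further down, MX1 (0.65). C1R had mean levels of 7.88 (0.58), 9.07 (0.41) and 8.40 (0.60) in the whole blood of 10 weeks (control, HFCD, HFCSD) and of 8.70 (0.26), 10.07 (0.50) and 9.42 (0.38) in white blood cells. MX2 had levels of 7.30 (0.79), 8.78 (1.20) and 8.06 (0.92) at 10 weeks and 7.98 (0.50), 9.81 (1.05) and 9.61 (0.45) in white blood cells. LGALS9 and SERPING1 were not close to each other by this measure, with r = 0.42 with diet kept and 0.23 within groups, where SERPING1 took place 126 and 149 among the probes ranked for LGALS9 and LGALS9 took place 150 and 482 among those ranked for SERPING1.

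**Figure D3:**
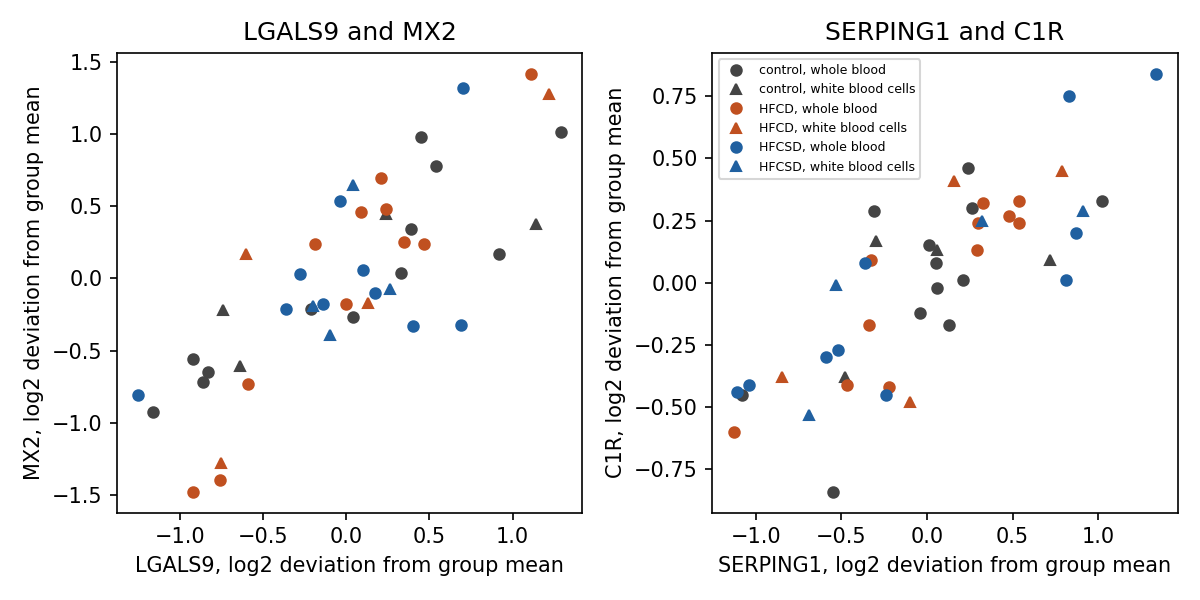
Deviation of each of the 45 arrays from its group mean, in log2 units, for LGALS9 (horizontal) against MX2 (vertical) and for SERPING1 against C1R, coloured by diet, with circles for whole blood and triangles for white blood cells. LGALS9 and MX2 mostly deviated in the same direction, as did SERPING1 and C1R, with r = 0.79 and 0.80 over 45 arrays.

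The correlation of LGALS9 with SERPING1 between arrays of the same group was tested with group means removed and the deviations permuted within groups, in a two-sided permutation test for each of 4 sets. In whole blood Pearson's r was -0.01 over 12 arrays at 10 weeks (permutation p = 0.986, adjusted 0.986), 0.19 over 11 at 19 weeks (permutation p = 0.539, adjusted 0.719) and 0.54 over 10 at 27 weeks (permutation p = 0.200, adjusted 0.558). In white blood cells it was 0.36 over 12 arrays (permutation p = 0.279, adjusted 0.558). Spearman's rho was 0.09, -0.03, 0.45 and 0.31 (permutation p = 0.807, 0.952, 0.308 and 0.356, adjusted 0.952, 0.952, 0.712 and 0.712). Without the 2 arrays farthest from the median LGALS9 level, r was -0.03, 0.27, 0.22 and 0.35, so the value at 27 weeks rested largely on those arrays. No set passed, and with 10 to 12 arrays per set a moderate correlation of LGALS9 with SERPING1 cannot be told apart from none.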

How the data were processed

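RNA of 45 blood samples was measured on 1-colour Agilent porcine arrays. The authors deposited spot intensities from Feature Extraction (version 9.5.3.1 in the submitters' notes, 10.5.1.1 per the file headers), background-subtracted within each array, and a table of the series holding intensities that the authors had quantile normalized, on a linear scale whose centring is not stated, used as an alternative. Of 45220 spots per array, 1417 control spots and 1 to 31 outlier spots were left out, 0 were saturated, and repeated spots were averaged per probe. The log2 of the processed signal was quantile normalized across arrays.

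Probes well above background on all usable arrays of at least 1 compared group, with at least 2 usable arrays, were tested two-sided with limma 3.58.1 in R 4.3.3 and Benjamini-Hochberg adjustment at 0.05, on the 3 diet groups of a set for diet and sucrose and on all 45 arrays otherwise. The code was tested on simulated data. Replicate numbers, compared by correlating deviations from group means over 12095 probes, paired arrays with r above 0.1 for every number in 2 of 18 comparisons between sets, both in HFCSD whole blood (10 or 19 against 27 weeks, lowest r 0.19 and 0.22); this is a hint from the data, as the labels state no pairing. Correlations used 100000 permutations and Python 3.11.15, numpy 2.4.6, pandas 2.3.3, matplotlib 3.10.9 and the R package data.table (version 1.17.8) read or plotted the data. Symbols came from RefSeq accessions, names and descriptions in the array annotation for 3216 probes.

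Named were all probes of LGALS9 and SERPING1, led by the probe well above background on most arrays (ties by the higher mean), of each list at most 5 called members by size and the 3 largest differences, every tested galectin, binding partner and contact protease, and, of the 5 most alike probes well above background on at least 36 arrays, most; C1R was named also as a target of C1 inhibitor, after its values were seen. The genes and the lists were chosen with earlier results of these data known. Alternatives were 75th percentile scaling, normexp with an offset of 50, the series table, other filters, blocks, a covariate, the t-test the methods name (with adjustment added, or unadjusted with their fold rule for list counts), other sets of arrays and each array left out in turn.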

Additional observations from a re-analysis of the deposited data

Results flagged for a closer look

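The SERPING1 level of the lead probe A_72_P226002 in HFCD whole blood at 10 weeks was 10.93, 9.50, 10.92 and 11.17, and replicate 2 lay apart from the other 3 arrays by 0.854 of the range of the group, more than Dixon's 95% critical value for 4 samples allows. This array was 1 of 54 tests of the 6 probes in the 9 groups of 4 arrays, and chance gives such a value in about 1 in 20 groups. It lay above the highest control array by little, and the cause was not tested.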

How the results depend on the processing

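Of the values recomputed with other settings, 554 kept call and direction or, for untested differences and counts, moved by less than the SD between arrays or 1.5 times, 18 untested differences or counts moved further, 9 tested values and 1 difference of diet effects turned sign, 6 passed only with the other setting and 8 no longer passed. Among these, 3 untested HFCSD differences from control also turned sign, LGALS9 and SERPING1 at 19 weeks and, within that SD, SERPING1 at 27 weeks. The series table correlated with the main values at r of 0.9997 or more on each array. That setting could hardly change a result, so the tally of 554 is no measure of robustness. With the slides as blocks, on 1 slide holding control and HFCD arrays, the 19-week LGALS9 difference from control was 0.71 under HFCD and -0.22 under HFCSD, and that of SERPING1 was 0.04 and -0.35. The HFCSD difference of LGALS9 at 19 weeks was 0.80 on the scan day of those arrays only, on which control replicate 1 was the only control. Scan days as blocks gave the same 0.80 by construction, since the other day held control arrays only. White blood cells minus whole blood in control was 0.28 for LGALS9 with 75th percentile scaling and 0.00 with slide blocks. For A_72_P077551 the scaling gave 0.20 in control and 0.01 under HFCD. For A_72_P312988 under HFCSD it gave 0.00, slide blocks -0.05 and the covariate -0.48. This scaling moved the median of all probes by 0.13 in control and 0.19 under HFCD.

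The control difference of A_72_P312988 missed the threshold with 5 settings (0.55 to 2.02). That of A_72_P011466 no longer passed by the t-test in control (1.62) and by the t-test or with no filter under HFCD (1.42), and it passed under HFCSD with 75th percentile scaling (1.21). The LGALS9 difference of -0.87 between sample types under HFCSD passed by the t-test (-0.87) and in the 2-group fit (-0.87), as did that of A_72_P077551 (-0.93). The 27 minus 10 week difference under HFCSD was 1.68 for LGALS9 with 75th percentile scaling, and passed. The r of LGALS9 with SERPING1 at 10 weeks was 0.03 with that scaling and 0.03 with normexp, where labels rest on an unadjusted p.

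List probes called were 13 under HFCD and 7 under HFCSD at 19 weeks with all 45 arrays in 1 fit (18.3% and 9.86%; all probes 3.19% and 1.92%). By the t-test with the fold rule, unadjusted, they were 11 and 2 at 10 weeks, 15 and 10 at 19 weeks, 11 under HFCD at 27 weeks, and 12 and 4 in white blood cells (15.3%, 2.90%, 21.1%, 14.1%, 15.3%, 15.2% and 5.06%; all probes 1.72%, 0.136%, 3.30%, 5.16%, 1.53%, 0.651% and 1.71%). Under HFCSD at 27 weeks they were 0 with the covariate, 1 with no filter and 1 by the t-test (0, 453 and 142 of all probes). Over all probes, calls for 27 minus 19 weeks under HFCSD numbered 156, 6 with 75th percentile scaling and 449 with normexp (44.9%, 33.3% and 71.9% higher). For the difference of HFCSD effects between these weeks they numbered 623, 90 and 974 (62.0%, 75.6% and 76.7% higher).

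In 16 of 18 comparisons between sets some arrays of the same number had r of 0.1 or less, so replicate numbers pair samples there in number only. As blocks they gave -0.01 for the SERPING1 difference of HFCSD effects between sample types and changed no other call or direction.

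With each array left out in turn, lowest and highest values were as follows for tested results, and differences of diet effects, whose call or direction turned. Between sample types in control they were -0.41 and 0.40 for LGALS9, -0.50 and 0.32 for A_72_P077551, 1.23 and 2.63 for A_72_P312988, -0.12 and 0.58 for SERPING1 and 1.18 and 1.91 for A_72_P011466. The LGALS9 value was 0.40 and 0.10 without whole blood replicate 1 or 2 and 0.18 and 0.21 without white blood cell replicate 2 or 4. That of A_72_P077551 was 0.32 without whole blood replicate 1 and 0.06 and 0.12 without white blood cell replicate 2 or 4. Under HFCD they were -0.63 and 0.04 for A_72_P077551 (0.04 and 0.00 without white blood cell replicate 1 or 3) and 1.13 and 1.74 for A_72_P011466. Under HFCSD they were -0.39 and 0.49 for A_72_P312988 (-0.07 and -0.39 without whole blood replicate 1 or 3, -0.23 and -0.04 without white blood cell replicate 1 or 3) and 0.88 and 1.46 for A_72_P011466, which passed without 27-week whole blood HFCSD replicate 3 (1.42) or white blood cell replicate 1 (1.46), and at 1.15 without HFCSD replicate 2 at 10 or 19 weeks or control replicate 4 at 27 weeks.

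HFCSD minus HFCD left-out values were -0.69 and 0.02 for SERPING1 at 19 weeks (0.02 without HFCSD replicate 1) and -0.20 and 0.28 for LGALS9 at 27 weeks (-0.20 without HFCD replicate 1). List probes called under HFCSD at 27 weeks were 0 and 11. Time differences were -0.08 and 0.66 for LGALS9, 27 minus 10 weeks in control, and -0.27 and 0.43 in control and -0.82 and 0.03 under HFCSD for SERPING1, 27 minus 19 weeks. Differences of diet effects between sample types were -0.75 and 0.06 for LGALS9 under HFCD (0.06 without white blood cell control replicate 1), -0.12 and 0.58 for SERPING1 under HFCD (-0.12 without whole blood control replicate 1, -0.04 without white blood cell HFCD replicate 3) and -0.07 and 0.71 under HFCSD (-0.07 without whole blood control replicate 1, -0.03 without white blood cell HFCSD replicate 4). Untested ranges that crossed 0 were -0.11 to 0.70, -0.17 to 0.54, -0.64 to 0.13 and -0.23 to 0.31 for SERPING1, HFCSD minus control at 10, 19 and 27 weeks and in white blood cells, and -0.48 to 0.23 and -0.38 to 0.17 for LGALS9, 27 minus 19 weeks in control and HFCD.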
